A study of Mus musculus with 5 samples.

Results

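Hedgehog signalling was examined in the pituitary of mouse embryos at e12.5 through 9 genes: the ligand Shh, the receptors and co-receptors Ptch1, Smo, Hhip and Boc, the transcription factors Gli1, Gli2 and Gli3, and the target Nkx2-2. Rows of the all-gene table were taken by name, keeping the longest region of each name, which gave 8 of the 9 genes out of 20097 gene symbols. Boc had no row under its own name. The series holds 5 RNA libraries from B6;129 embryos, labelled as epithelial cells of the pituitary and as separate biological replicates. The 3 control embryos, numbered 9, 10 and 12, were Itgb1 f/f, with both alleles of the integrin beta 1 gene floxed. The 2 knockout littermates, numbered 13 and 16, were Itgb1 f/f; Pitx1-cre. The Pitx1 promoter drives Cre in oral ectoderm and the anterior pituitary formed from it, whereas the infundibulum, the brain's part of the gland, lies outside that lineage. The design compares gene expression between these genotypes.

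In the absence of ligand, Ptch1 holds Smo inactive and Gli proteins are processed to repressors. Binding of Shh to Ptch1, helped by co-receptors such as Boc, frees Smo, and Gli2 and Gli3 then act as activators while Gli1, Ptch1 and Hhip are transcribed as targets. In the early head Shh is made by the ventral diencephalon and the oral ectoderm and is switched off in Rathke's pouch, the epithelial fold that becomes the anterior pituitary, while the pouch itself responds to the signal. Ptch1 and Gli1 are the usual readouts of that response.

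The names of the rows were first checked against gene lengths, because levels depend on the region that was counted. Set against the gene locations in the authors' deposited list of differential genes, regions of 490 plus-strand genes started 800 bp late (median), and those of 529 minus-strand genes lost 400 bp (median) at each end. A region plus 800 bp should therefore match its gene. The rows named Smo and Gli1 matched the RefSeq genes to the base, and those named Gli2, Gli3 and Hhip matched to 786, 1 and 53 bp. The row named Ptch1 was 0.83 times the RefSeq extent of the gene. These 6 rows were taken as the genes they name.

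The rows named Shh and Nkx2-2 did not match those genes. The row named Shh (mm9 chromosome 5, 28794324 to 29045749) was 24.58 times as long as the gene. With 800 bp added it was 252226 bp long, exactly the length of 9530036O11Rik, a noncoding RNA that RefSeq places on the opposite strand with an overlap of 118 bp at the start of Shh. The row that bears the name 9530036O11Rik (mm9 chromosome 5, 28783780 to 28793241) had the length of Shh, 10262 bp. It began 37998 bp after the neighbouring gene Rbm33, where Shh begins 37596 bp after Rbm33 in GRCm38. RefSeq lists 9530036O11Rik among the synonyms of Shh. In the same way the row named Nkx2-2 (mm9 chromosome 2, 147010619 to 147157417) had the length of the antisense RNA Nkx2-2os, 147599 bp. The short row named Nkx2-2as (mm9 chromosome 2, 147003682 to 147011738) began 99949 bp after Xrn2, against 99546 bp for Nkx2-2 in the GENCODE annotation and 98485 bp in RefSeq. With 800 bp added it was 0.47 times the RefSeq extent of Nkx2-2 (18950 bp), so its match is weaker than that of the other rows. A row named Mir3081 (mm9 chromosome 16, 44485558 to 44558583) had the length of Boc, 73826 bp, which is far longer than a microRNA. These 3 rows are called Shh, Nkx2-2 and Boc by position, a choice made after the table was seen. Over the whole table, 1035 of 19409 rows with a RefSeq symbol (5.33%) were more than 2 times as long as the gene they name.

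**Figure D1:**
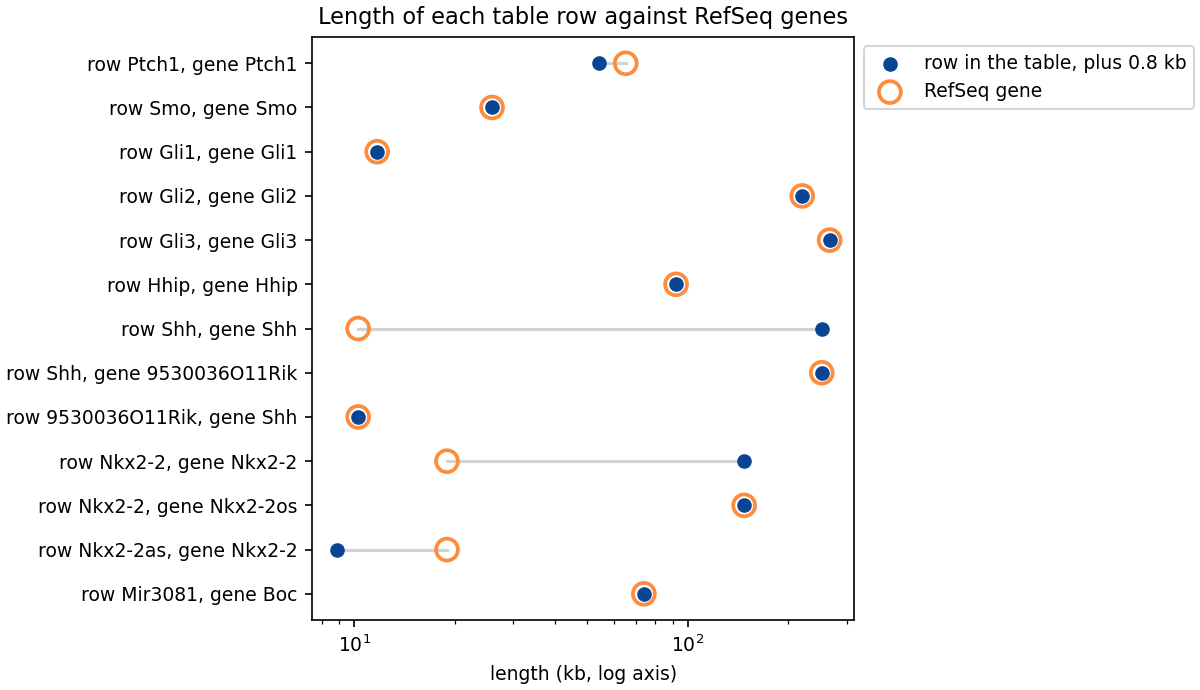
Length in kb (log axis) of each Hedgehog row with 0.8 kb added (filled points) and of the RefSeq gene it is compared with (open circles). The rows named Shh and Nkx2-2 sit at the antisense RNAs 9530036O11Rik and Nkx2-2os, and the row named 9530036O11Rik sits at Shh.

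The deposited unit is the number of tags per 10000000 sequenced. Recovered reads over listed genes numbered 4480809 to 6143263 per library. Knockout 16 stood apart: autosomal olfactory and vomeronasal receptor genes, used as a measure of background, carried 1.50 tags per kb there, 0.48 in knockout 13 and 0.16 to 0.40 in the controls. Level also followed region length most closely in knockout 16 (Spearman rho across genes 0.93, against 0.64 to 0.73 in the other 4, where genes are not independent replicates). As deposited, the median gene was 0.97 higher in the knockouts on the log2 scale, so fold changes below are on values scaled by TMM factors, where that median is 0.04. Log2 changes are of log2(scaled value + 1), knockout minus control, which understates changes of low genes. Itgb1 gave 449, 428 and 602 scaled tags in controls, against 340 for knockout 13 and 106 for knockout 16, a log2 change of -1.35 ± 0.49 (SE; limma, adjusted p = 0.767), with both knockouts below every control. As deposited, knockout 13 held 446.36 tags, more than any control (highest 430.91). Tags were summed over the whole region and do not check the floxed exon. Rathke's pouch markers such as Six6 (115 ± 41.1 deposited tags, SD, n = 3) and Pitx1 (128 ± 26.8, SD, n = 3) were well above background in the controls. Although the label names epithelial cells, markers of other cells were present. The 8 infundibulum and diencephalon markers summed to 402 to 672 deposited tags in the controls and the 8 Rathke's pouch markers to 393 to 617. Of the infundibulum and diencephalon sum, Fgf10 alone held 139.09 to 344.55 tags.

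No Hedgehog row passed the gene test. With limma, 0 of the 8 rows by name and 0 of the 3 by position had an adjusted p under 0.05, and 0% of the 19313 genes tested did. At an unadjusted p under 0.05 there were 0 of these 11 rows and 386 genes, or 2.00% of all. The edgeR quasi-likelihood test on recovered reads also called 0 genes, with 478 at an unadjusted p under 0.05. DESeq2 called 25 genes, none of them among the 11 rows. Of these rows only Ptch1, Gli2 and Gli3 received an adjusted p in DESeq2 (0.694, 0.892 and 0.694). The others could not have been called by it. No row had both knockouts outside the range of the controls on scaled values, where 8.50% of all genes had both above and 6.80% both below. With background subtracted first there was again none, and the shares over all genes were 8.55% and 7.27%. As deposited, 4 of the 8 rows by name had both knockouts above every control, against a background of 50.2% of genes, and 0 had both below, against 0.202%.

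The knockouts differed from each other in the 6 rows that match their gene. On scaled values knockout 16 lay below every control in 5 of the 6 (all but Gli2) and above in 0, where 39.5% of all genes were below and 44.0% above. Knockout 13 lay below every control in 1 of the 6 (Gli2) and above in 0, against 16.3% and 20.9% of all genes. With background subtracted, knockout 16 was below in 5 and above in 1 (Gli2), against 37.0% and 41.5%. Knockout 13 was then below in 1 (Gli2) and above in 2 (Smo and Gli1), against 19.1% and 23.2%.

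The ligand gene was low and variable among the controls. Shh by position held 17.27, 10.91 and 0.91 deposited tags in controls 9, 10 and 12, from 19, 12 and 1 reads. Knockout 13 had 7.27 from 8 reads and knockout 16 had 19.09 from 21. The exact 95% Poisson intervals were 10.4 to 27.0 in control 9 and 0.0230 to 5.07 in control 12, which do not overlap. The background of a region this long came to 2.45, 3.75 and 1.51 tags in controls, against 4.54 for knockout 13 and 14.2 for knockout 16. In knockout 16 the background therefore amounts to 74.3% of the deposited value. After background subtraction and scaling, Shh by position came to 22.9, 6.57 and 0.00 in controls, against 1.81 for knockout 13 and 4.90 for knockout 16, so both knockouts lay within the range of the controls. Knockout and control did not differ beyond the spread, at a log2 change of -0.08 ± 0.94 (SE; 95% interval -2.16 to 2.01; limma, adjusted p = 0.977). The value was 0.79 as deposited, 0.76 without control 9 and -1.10 without control 12.

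The row named Shh, which has the length of the antisense RNA, gave a different picture. It held 80.00, 142.73 and 61.82 deposited tags in controls, against 176.36 for knockout 13 and 505.45 for knockout 16, and both knockouts lay above every control. Background for its 251 kb was estimated at 121 tags for knockout 13 and 377 for knockout 16. It came to between 64.8% and 81.4% of the value in each library. On scaled values its log2 change was 0.73 ± 0.43 (SE; limma, adjusted p = 0.767), and 0.19 without knockout 16. With background subtracted and knockout 13 left out, its log2 change was 2.17, which rests on knockout 16 alone. The other ligands were near background. Ihh, the ligand of cartilage and gut, had a control mean of 3.64 ± 2.73 deposited tags (SD, n = 3), with 1.82 in knockout 13 and 10.91 in knockout 16. Dhh, the ligand of gonad and nerve sheath, had 2.42 ± 2.77 (SD, n = 3), 4.55 and 5.45, in a row 0.33 times the length of the gene. Their adjusted p values in limma were 0.92 and 0.889.

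Markers of the infundibulum and ventral diencephalon, next to the Shh source in the brain, were low in both knockouts. All 8 had log2 changes below 0, none passed the adjusted threshold in limma, and 6 lay below every control in both knockout libraries on scaled values, as did 6.80% of all genes. Fgf10, a growth factor made by the infundibulum, had a log2 change of -2.11 ± 0.43 (SE), and the transcription factors Tbx3 and Nkx2-1 of -2.04 ± 0.46 and -1.82 ± 0.46 (SE). Each had an adjusted p of 0.767 in limma. The summed scaled level of the list was 662 to 797 in controls, against 250 for knockout 13 and 138 for knockout 16. As deposited it was 402 to 672 in controls, 328 in knockout 13 and 243 in knockout 16. Fgf10 alone gave 229, 346 and 434 of the scaled sum in controls 9, 10 and 12, 105 in knockout 13 and 52.7 in knockout 16. Its background estimate in knockout 16 was 125% of its deposited value. In bulk tissue, fewer cells of a type and less RNA per cell cannot be told apart. The part of these cells in the Shh and Nkx2-2 values was not tested.

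Ptch1, the Shh receptor and itself a target, had the largest decrease in the fit among the 6 rows that match their gene, without passing the test. The region (mm9 chromosome 13, 63613241 to 63666428) held 378.18, 581.82 and 659.09 deposited tags in controls, against 867.27 for knockout 13 and 313.64 for knockout 16. Knockout 13 was thus the highest and knockout 16 the lowest of the 5. On scaled values the controls held 623, 584 and 920. Knockout 13, with 661, was inside their range, and knockout 16, with 178, below it. Its log2 change was -1.01 ± 0.53 (SE; 95% interval -2.18 to 0.16; limma, adjusted p = 0.767), and -0.01 on the deposited scale. The difference was in knockout 16: the log2 difference from the control mean was -1.96 there and -0.07 in knockout 13. Without knockout 13 limma called Ptch1 lower (adjusted p = 0.0162), in a fit that called 13.4% of all genes and rests on knockout 16 alone, and without knockout 16 limma called 0 genes. After background subtraction Ptch1 in knockout 16 came to 234, against a lowest control of 514.

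Smo, the membrane protein that passes the signal into the cell, showed the same split on a smaller scale. The region (mm9 chromosome 6, 29686297 to 29711366) held 75.45, 118.18 and 133.64 deposited tags in controls, against 227.27 for knockout 13 and 120.00 for knockout 16. On scaled values knockout 13 (173) lay within the controls (119 to 187) and knockout 16 (68.2) below them. The fit gave a log2 change of -0.36 ± 0.46 (SE; 95% interval -1.37 to 0.65; limma, adjusted p = 0.795). It turned to 0.63 on the deposited scale and to 0.30 without knockout 16.

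Hhip, a membrane protein that binds and sequesters Shh and is induced by it (mm9 chromosome 8, 82490150 to 82581507), held 66.36, 104.55 and 90.91 deposited tags in the controls and 157.27 in each knockout. Both knockouts were above every control on that scale. The background estimate was 43.9 tags in knockout 13 and 137 in knockout 16, or 27.9% and 87.0% of the value. After subtraction and scaling Hhip came to 66.1, 62.7 and 81.1 in controls, against 75.4 for knockout 13 and 20.4 for knockout 16. Scaled values gave a log2 change of -0.13 ± 0.36 (SE; limma, adjusted p = 0.901), which turned to 0.87 on the deposited scale and to 0.08 without knockout 16. With background subtracted and knockout 13 left out, the log2 change of Hhip was -1.72, again on knockout 16 alone.

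Boc by position, a co-receptor that promotes Shh binding, held 37.27, 97.27 and 54.55 deposited tags in controls, against 93.64 for knockout 13 and 199.09 for knockout 16. On scaled values knockout 13 (71.4) was within the controls (61.4 to 97.7) and knockout 16 (113) above them. For Boc the log2 change was 0.22 ± 0.40 (SE; limma, adjusted p = 0.853), and -0.11 without knockout 16. Boc was the receptor gene in which knockout 16 lay above the controls, also after background subtraction (89.5 against 28.4 to 62.7). Of all genes, 44.0% lay above every control in knockout 16, and 41.5% after subtraction. The background estimate for Boc was 21.3% to 50.7% of the deposited value in controls, 37.4% in knockout 13 and 55.0% in knockout 16.

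The promoter windows of the feedback receptors Ptch1 and Hhip are shown because both genes are read as direct targets of Gli factors. Windows run from 250 bases before to 50 after the transcription start (RefSeq, GRCm38.p6) and are on the minus strand, at chr13:63565686-63565985 for Ptch1 and chr8:80057959-80058258 for Hhip. The Gli consensus GACCACCCA was searched on both strands. Capitals mark a stretch with the fewest mismatches to it, 3 in Ptch1 and 2 in Hhip. Where stretches tied, as in Ptch1, only the first found is marked.
Ptch1: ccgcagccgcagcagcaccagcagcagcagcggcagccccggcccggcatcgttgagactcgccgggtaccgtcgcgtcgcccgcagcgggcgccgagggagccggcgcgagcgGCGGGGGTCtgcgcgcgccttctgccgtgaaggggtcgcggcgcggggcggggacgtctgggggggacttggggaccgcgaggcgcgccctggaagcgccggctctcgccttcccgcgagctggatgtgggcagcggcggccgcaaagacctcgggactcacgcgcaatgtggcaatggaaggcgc
Hhip: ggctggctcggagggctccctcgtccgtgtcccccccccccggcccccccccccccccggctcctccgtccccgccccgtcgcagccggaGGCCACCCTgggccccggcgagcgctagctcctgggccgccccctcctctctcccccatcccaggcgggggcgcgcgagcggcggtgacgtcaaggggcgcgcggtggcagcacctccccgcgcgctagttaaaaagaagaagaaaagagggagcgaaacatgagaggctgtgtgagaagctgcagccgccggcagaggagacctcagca
None of the 6 members with a window (Ptch1, Smo, Gli2, Gli3, Hhip and Nkx2-2) held an exact match or one with a single mismatch. Exact matches were in 0.253% of the 32851 windows of all genes, and matches with up to 1 mismatch in 6.74%. This says only that these letters are not in these windows.

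Gli1, the activator whose transcription depends on the pathway (mm9 chromosome 10, 126767338 to 126778235), held 31.82, 58.18 and 66.36 deposited tags in controls, against 114.55 for knockout 13 and 42.73 for knockout 16. The Poisson interval of knockout 13 was 95.4 to 136 and did not reach the highest control. On scaled values, however, knockout 13 (87.3) lay within the controls (52.4 to 92.6) and knockout 16 (24.3) below them. The log2 change was -0.50 ± 0.55 (SE; 95% interval -1.71 to 0.71; limma, adjusted p = 0.776). It turned to 0.40 without knockout 16 and to 0.49 on the deposited scale. After background subtraction knockout 13 was at 72.7, just above the highest control at 68.6, and knockout 16 at 26.4. The background estimate was 38.2% of the deposited value in knockout 16, against 25.4% for Ptch1, 31.3% for Smo and 58.8% for Gli3.

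Gli3, which acts mainly as a repressor, was the member with the most tags. The region (mm9 chromosome 13, 15556356 to 15821858) held 445.45, 933.64 and 1024.55 deposited tags in controls, against 1409.09 for knockout 13 and 676.36 for knockout 16. On scaled values knockout 13 (1074) was within the controls (734 to 1430) and knockout 16 (384) below them. Its log2 change was -0.63 ± 0.50 (SE; limma, adjusted p = 0.767), which turned to 0.11 without knockout 16 and to 0.38 on the deposited scale.

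Gli2, the main activator of the pathway, lay within the controls in knockout 16, where Gli1 and Gli3 were below them. The region (mm9 chromosome 1, 120731038 to 120949796) held 204.55, 350.00 and 301.82 deposited tags in controls, against 400.91 for knockout 13 and 652.73 for knockout 16, so both knockouts were above every control before scaling. On scaled values knockout 13 (306) was below the lowest control (337) and knockout 16 (371) within the controls. The fit gave -0.13 ± 0.35 on the log2 scale (SE; limma, adjusted p = 0.899), and 0.87 on the deposited scale. Of the value in knockout 16, 50.2% equalled the background estimate for a region of 219 kb. After subtraction the controls held 229, 241 and 284. Knockout 13 (197) and knockout 16 (324) then lay on opposite sides of them. The authors' deposited table of differential genes holds 1140 genes, where the all-gene table has 20097 symbols. Gli2 was the only one of the 9 members in it, with a log2 fold change of -0.5 and a p-value of 0.00101. That direction matches knockout 13 on scaled values, and is opposite to the deposited tags, which were higher in both knockouts. Which libraries lie behind that entry is not stated in these sources.

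The balance of Gli3 to Gli2 per kb of region was 1.79, 2.20 and 2.80 in controls, against 2.90 for knockout 13 and 0.85 for knockout 16. Gli2 exceeded Gli3 per kb in knockout 16 and in none of the other 4. With background subtracted the ratios were 2.10, 2.60 and 3.03 in controls, against 3.56 for knockout 13 and 0.71 for knockout 16. The ratio of Gli1 to Ptch1 per kb was 0.41, 0.49 and 0.49 in the controls and 0.64 and 0.66 in knockouts 13 and 16, above every control in both. With background subtracted it was 0.39, 0.47 and 0.48 in controls, against 0.63 for knockout 13 and 0.55 for knockout 16. Smo to Ptch1 was likewise 0.42, 0.43 and 0.43 in controls and above them in knockout 13 (0.56) and knockout 16 (0.81). Gli1 to Gli3 was 1.74, 1.52 and 1.58 in controls, above them in knockout 13 (1.98) and within them in knockout 16 (1.54), and above them in both with background subtracted (2.08 and 2.31 against 1.58 to 1.88). These ratios were chosen after the values were seen and were not tested. How often other pairs of genes separate the genotypes in this way was not computed.

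Nkx2-2, a transcription factor induced by high Shh in the ventral neural tube and hypothalamus, was near background. Nkx2-2 by position held 2.73, 8.18 and 0.91 deposited tags in controls, against 4.55 for knockout 13 and 17.27 for knockout 16. These came from 3, 9, 1, 5 and 19 reads. Background for the region was 2.09, 3.19 and 1.28 tags in controls, against 3.87 for knockout 13 and 12.1 for knockout 16, and in control 12 it exceeded the value. Its log2 change was 0.52 ± 0.78 (SE; 95% interval -1.20 to 2.24; limma, adjusted p = 0.82). The direction turned without control 12 (-0.04) and without knockout 16 (-0.13).

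The long row named Nkx2-2 held 57.27, 74.55 and 34.55 deposited tags in controls, against 95.45 for knockout 13 and 352.73 for knockout 16. Background was estimated at 62.4% to 78.0% of the value in each library. The log2 change was 0.78 ± 0.50 (SE; limma, adjusted p = 0.767) and 0.06 without knockout 16. Of the 11 rows, those named Shh and Nkx2-2 had the largest positive changes in the fit, and both match antisense RNAs in length.

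Per kb of region, the members fell into levels that can be compared within a library, although regions include introns in differing shares. Ptch1 was highest at 10.1 ± 2.73 tags per kb (SD, n = 3 controls), and its control range, 7.11 to 12.4, did not overlap that of any other member. Gli1 (4.78 ± 1.66), Smo (4.35 ± 1.20) and Gli3 (3.02 ± 1.17) followed, and their control ranges overlapped. Gli2 (1.30 ± 0.339) lay below Gli3 without overlap. Shh by position (1.02 ± 0.872), Hhip (0.955 ± 0.212), Boc by position (0.863 ± 0.423) and Nkx2-2 by position (0.489 ± 0.470) overlapped each other, and each overlapped Gli2. In knockout 16 the 6 rows that match their gene ran from 1.72 for Hhip to 5.90 for Ptch1, over a background of 1.50.

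**Figure D2:**
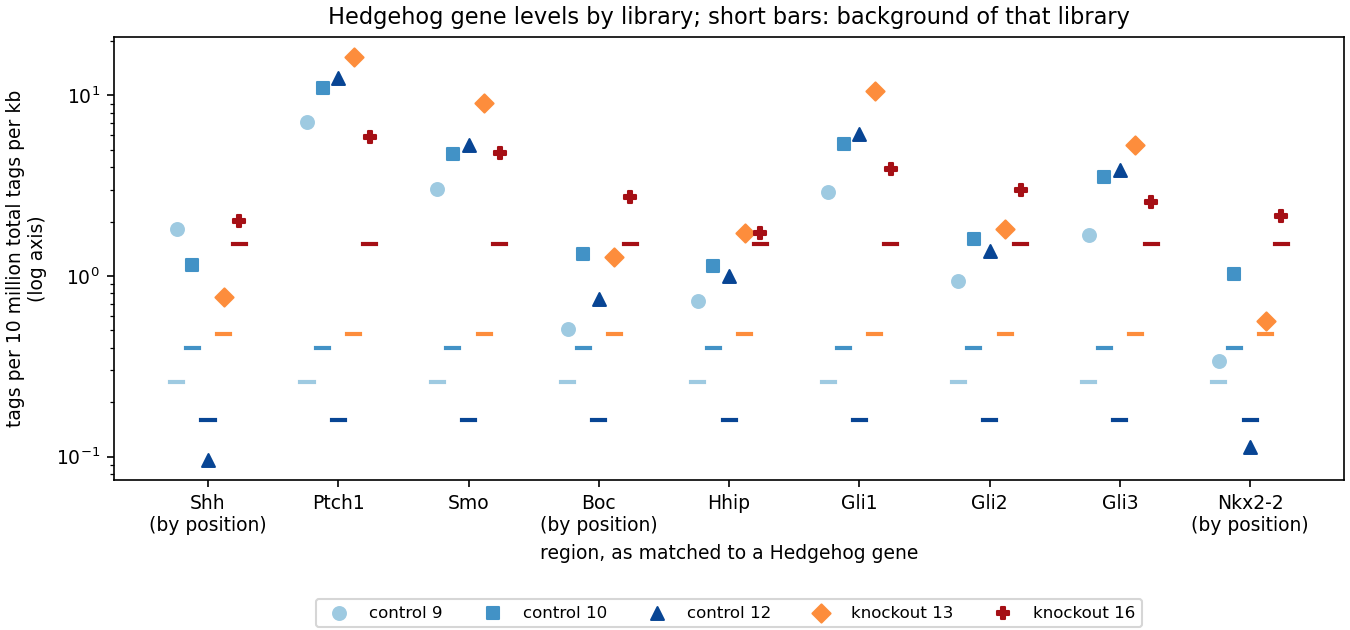
Deposited tags per 10000000 per kb of region (log axis) for the 9 genes, with a point for each of the 5 libraries and a short bar at the background of that library. In knockout 16, Hhip (1.72) sits near the background of 1.50, while Ptch1 (5.90) and Smo (4.79) stand clear of it.

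**Figure D3:**
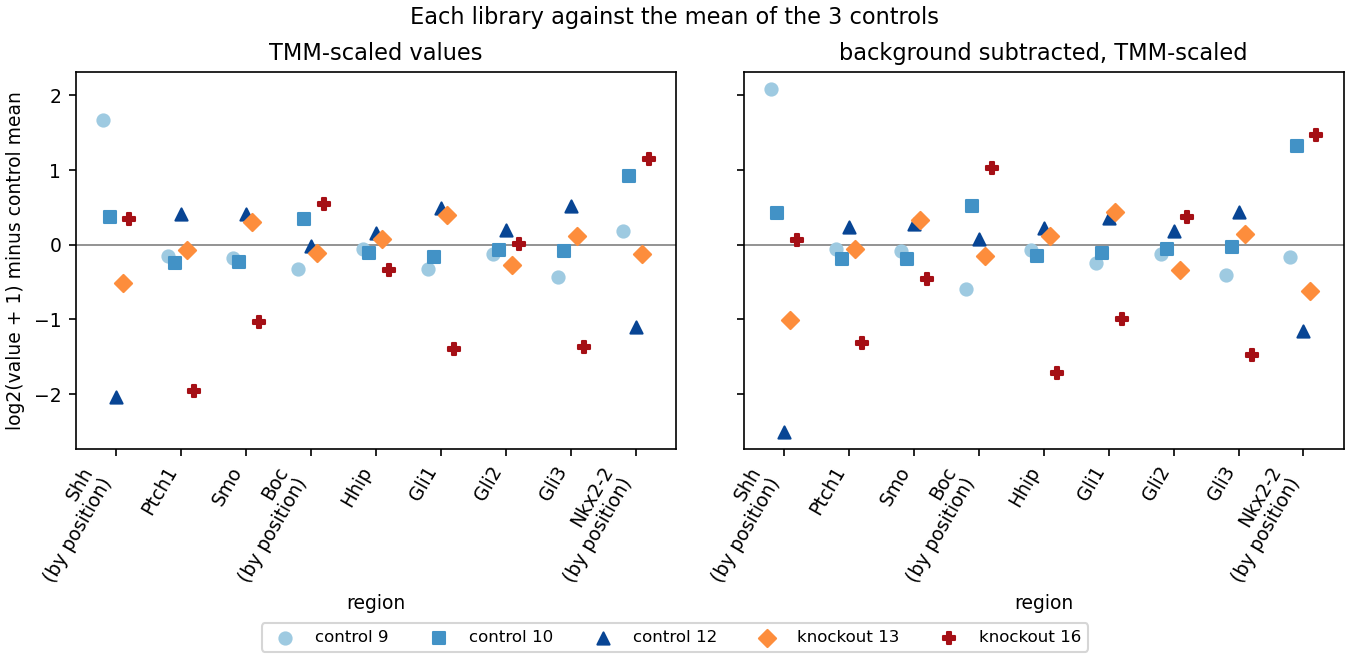
Log2 of each library's value plus 1, minus the mean of the 3 controls, for TMM-scaled values (left) and with background subtracted first (right); each point is a library. Knockout 16 lies low for Ptch1 (-1.96 left, -1.32 right), Gli1 (-1.40 and -0.99) and Gli3 (-1.37 and -1.47), where knockout 13 has -0.07, 0.40 and 0.11 on the left.

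The remaining pathway genes were described by list, from lists of ligand release, reception, transduction, cilium and target genes. In limma none of their tested members passed the adjusted threshold, and the median of all genes was 0.04. On the deposited scale, where that median is 0.97, the medians of these 5 lists were all above 0, from 0.55 to 1.19. Of the 7 genes of ligand production and release, 4 were above and 3 below a log2 change of 0, with a median of 0.23. That median turned to -0.56 with background subtracted, -0.09 without knockout 16, -0.08 in edgeR and -0.13 in DESeq2. Scube1, a secreted protein that helps release Shh from cells, was below every control in both knockouts on scaled values (-1.36 in knockout 13 and -1.12 in knockout 16), with a log2 change of -1.24 ± 0.37 (SE; limma, unadjusted p = 0.0066, adjusted p = 0.767). As deposited it held 395 ± 43.2 tags in controls (SD, n = 3) and 265.45 in knockout 13, and knockout 16 (419.09) lay within the controls. Scube3 had a log2 change of -0.23 ± 0.38 (SE; limma, adjusted p = 0.835). The authors' deposited list of 1140 differential genes holds Scube3, with a log2 fold change of -0.42. From the other pathway lists it holds Cdon (1.32), Ccnd2 (1.91), Dync2h1 (-1.15) and Ift172 (-0.28). In the fit here these genes had log2 changes of 0.05, 0.04, -0.21 and -0.25. The row named Ccnd2 was 2.33 times the length of its gene. It spanned 127100207 to 127162437 on mm9 chromosome 6, and the authors' entry 127075727 to 127101066. These regions overlap only at their ends, so the values given for Ccnd2 do not measure the same region.

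Among the 5 other reception genes 1 was above and 4 below 0, and the median was -0.45. That median was 0.27 without knockout 16 and -0.72 without knockout 13. Gas1, a co-receptor anchored in the membrane, had 18 to 26 reads in controls, 49 in knockout 13 and 11 in knockout 16. On scaled values its log2 difference from the control mean was 0.43 in knockout 13 and -1.96 in knockout 16. The row named Gpc3 was 0.13 times the length of its gene and is not read further by itself. It stays in the counts and median of its list. No row was left out of a list for its length, which ran from 0.03 to 3.93 times the gene.

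Of 14 transduction genes, 6 were above and 8 below 0 (median -0.17), and of 6 cilium genes with a row 1 was above and 5 below (median -0.20). Without knockout 16 these medians were 0.14 and -0.00. Csnk1a1 and Csnk1e, casein kinases that act on Smo and Gli proteins, had log2 changes of -0.86 ± 0.56 and -0.41 ± 0.45 (SE; adjusted p of 0.767 and 0.777 in limma). The cilium genes Kif3a, a motor subunit of transport into the cilium, and Rab23, a negative regulator of the pathway, had changes of -0.49 ± 0.40 and -0.13 ± 0.44 (SE). Of 16 other target genes tested, 7 were above and 9 below 0, with a median of -0.21. Ccnd1, the cyclin of G1 phase, had a log2 change of -1.41 ± 0.58 (SE; limma, adjusted p = 0.767), being -2.58 from the control mean in knockout 16 and -0.24 in knockout 13. Foxd1, a forkhead factor of mesenchyme and diencephalon, had one of -1.47 ± 0.54 (SE; limma, adjusted p = 0.767), at -0.99 from the control mean in knockout 13 and -1.96 in knockout 16.

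Marker lists of the cell types in and around the gland differed between the libraries too. Rathke's pouch markers had a median log2 change of -0.52, which was 0.45 without knockout 16 and -1.69 without knockout 13. The median of these markers was -0.14 with background subtracted and -0.21 in both edgeR and DESeq2. Their summed scaled level was 613 to 862 in controls, against 942 for knockout 13 and 266 for knockout 16, and 7 of 8 lay below 0 in the fit. Ptch1, Smo, Gli1 and Gli3 were low in the same library. Head mesenchyme markers summed to 695 to 741 in controls, against 564 for knockout 13 and 466 for knockout 16 on scaled values, with Col1a1 and Twist1 at log2 changes of -1.07 ± 0.37 and -0.96 ± 0.55 (SE). Of the 8, 3 were above and 5 below 0, with a median of -0.14 that turned to 0.05 with background subtracted. Oral epithelium markers summed to 278 to 341 in controls, against 358 for knockout 13 and 354 for knockout 16, with Krt18 at -0.84 ± 0.53 and Krt8 at -0.46 ± 0.44 (SE). Of these 8, 4 were above and 4 below 0, with a median of 0.35, and 3 had both knockouts above every control on scaled values, as did 8.50% of all genes. Krt5, Krt14, Krt15 and Trp63, keratins and a transcription factor of stratified epithelium, were the 4 above 0, at 0.87 ± 0.60, 0.96 ± 0.70, 1.07 ± 0.90 and 0.86 ± 0.44 (SE). Krt14 and Krt15 held at most 17 reads a library. For Trp63, background was estimated at 74.1% to 89.5% of the value in each library. The median of the oral epithelium list was 0.02 without control 9. Endothelial markers summed to 687 to 750 in controls, 681 in knockout 13 and 971 in knockout 16. Their median log2 change was 0.03, with 5 above and 3 below 0. Cdh5 was at -0.07 ± 0.38 and Tie1 at -0.07 ± 0.42 (SE). Neuronal markers summed to 1055 to 1187 in controls, 938 in knockout 13 and 779 in knockout 16. Their median was -0.10, with 3 above and 5 below 0. Nefl was at -1.01 ± 0.57 and Tubb3 at -0.52 ± 0.54 (SE). Of all these markers, the authors' deposited list of 1140 differential genes holds Lhx3, Elavl3, Dcx and Cdh5. Its log2 fold changes for them are 2.58, 1.74, 1.58 and 1.17, against -0.80, 0.11, -0.02 and -0.07 in the fit here. No marker had an adjusted p under 0.05 in limma, none was at 0 in every library, and the part of these cell types in the Hedgehog values was not tested.

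**Figure D4:**
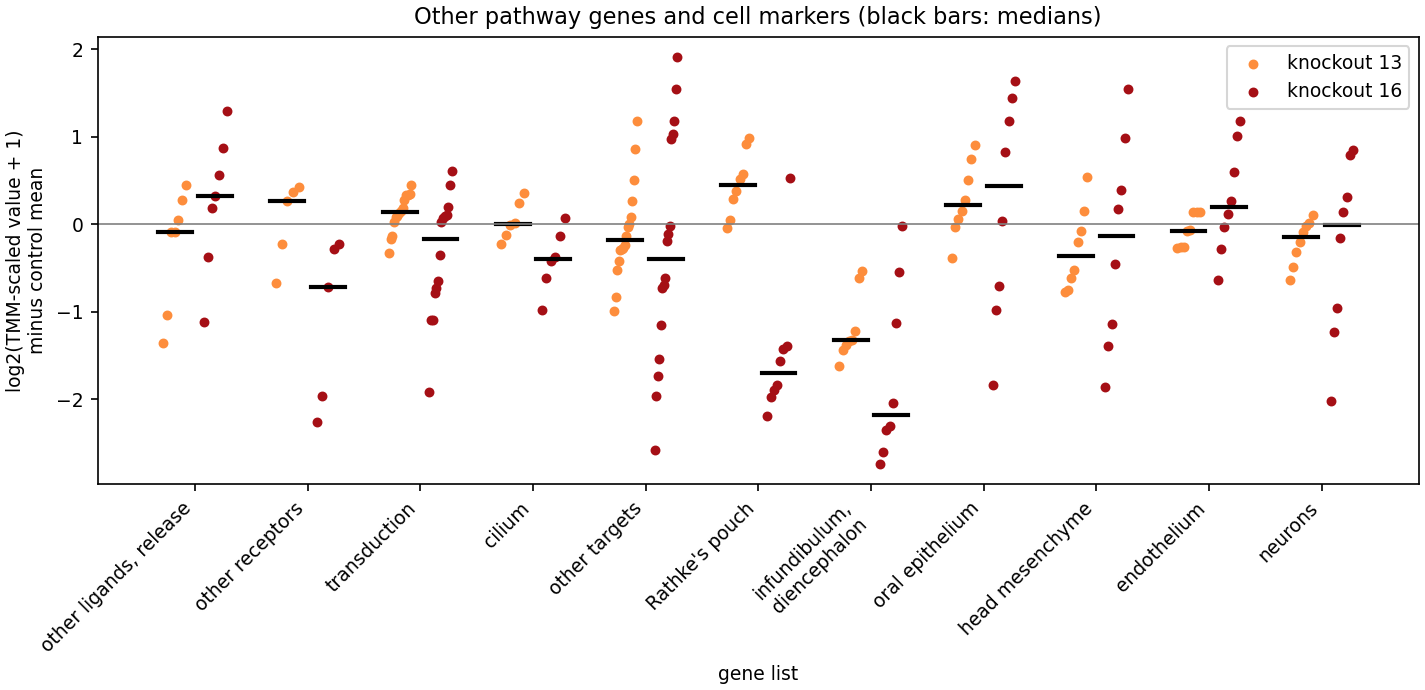
Log2 of the TMM-scaled value plus 1, minus the control mean, for each tested gene of the other pathway lists and the marker lists in knockouts 13 and 16; black bars are medians. Rathke's pouch markers sit mostly above 0 in knockout 13 and mostly below it in knockout 16, and infundibulum markers are below 0 in both.

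The genes most like 3 of the rows across the 5 libraries were found by Euclidean distance between centred log2 profiles, among 11052 named genes with a mean of at least 20 tags. Gli1 was nearest to Apoe (distance 0.0863), Atp5d (0.102) and Mapk1ip1l (0.125). Ptch1 was nearest to Rnf181 (0.0778), Pum2 (0.103) and Nynrin (0.113). The row named Shh was nearest to Itga7 (0.0461), Stk32b (0.0847) and Fam135b (0.0870), all highest in knockout 16. These distances rest on 5 libraries, of which 1 stands apart.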

How the data were processed

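Total RNA depleted of ribosomal RNA was made into strand-specific libraries and sequenced, per the labels' protocols. Bowtie2, HOMER and edgeR, with the build mm9, appear in the submitters' processing notes, without roles or versions. The authors deposited a normalized signal for 21022 regions, scaled to 10000000 tags a library, per the file headers. The table marks all regions as plus-strand. Use of strand in counting was not given in the sources used here, so sense and antisense tags cannot be told apart where genes overlap. A second table, as deposited, gives for differential genes a log2 fold change, a p-value, linear fold columns (ratio), and for either genotype a score of unstated making.

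The longest region of each of 20097 symbols was kept, and 19313 genes with a mean of at least 1 were tested. Values were scaled by TMM factors and log2(value + 1) was fitted with limma 3.58.1 (trend) in R 4.3.3, with Benjamini-Hochberg adjustment over all genes and a threshold of 0.05. The count tests used reads recovered from the steps of the values (100.00% whole within 0.01 reads, implying 11000000 tags in each library), with edgeR 4.0.16 and DESeq2 1.42.0 as alternatives (edgeR called 0 genes). Background was the tags per kb of 409 autosomal olfactory and vomeronasal receptor genes, times region length, subtracted with a floor of 0. Poisson intervals are exact, at 95%, and cover counting error only. The script was tested on simulated data. Other alternatives were scalings, pseudocounts, filters and leaving out each library; a knockout left alone is assumed to vary like the controls.

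Members and lists were chosen with earlier results of these data known. Genes named beyond the members were Itgb1, the 2 members of highest mean level per kb over all 5 libraries in each list (called members first, had there been any), Ihh, Dhh and the nearest profiles; 1 gene of the rule is not reported here. Fgf10, Krt5, Krt14, Krt15 and Trp63 were added after their values were seen. Cdon, Ccnd2, Dync2h1, Ift172, Lhx3, Elavl3 and Dcx are named because the authors' deposited list of differential genes holds them. Promoter sequences are from RefSeq (GRCm38.p6).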

Additional observations from a re-analysis of the deposited data

How the results depend on the processing

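In limma no gene and no Hedgehog row passed the threshold under another pseudocount, filter, scaling or background subtraction, nor in the edgeR quasi-likelihood test. DESeq2 called 25 genes, none of them a Hedgehog row, but gave an adjusted p only to Ptch1, Gli2 and Gli3 of these rows. Leaving out 1 library gave 0 to 2580 called genes and 0 to 1 called Hedgehog rows, both highest without knockout 13. Background subtraction without knockout 13 gave 2877 genes and 3 Hedgehog rows. On the deposited scale the log2 change turned for Smo (0.63), Gli1 (0.49), Gli2 (0.87), Gli3 (0.38), Hhip (0.87) and Shh by position, the row named 9530036O11Rik (0.79). With background subtracted Gli2 turned to 0.01.

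Leaving out each library moved Smo from -1.03 to 0.30, Gli1 from -1.40 to 0.40, Gli2 from -0.27 to 0.01, Gli3 from -1.37 to 0.11 and Hhip from -0.34 to 0.08. Shh by position (9530036O11Rik) moved from -1.10 to 0.76, Nkx2-2 by position (Nkx2-2as) from -0.13 to 1.14 and Boc by position (Mir3081) from -0.11 to 0.55. With background subtracted and knockout 16 left out, Smo was 0.33, Gli1 0.44, Gli3 0.14, Hhip 0.12, the row Nkx2-2 -0.07, Nkx2-2as -0.62 and Mir3081 -0.15. With background subtracted and knockout 13 left out, Gli2 was 0.37 and 9530036O11Rik 0.03. The causes of these turns were not tested. No paired analysis was made, because the labels used here do not give the litter of each embryo. Shh and Nkx2-2 by position rest on at most 21 reads a library, so only large differences could be seen there.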
